A study of Bubalus bubalis with 36 samples.

Results

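The fat over the breastbone (sternal subcutaneous adipose tissue) was set against the fat around the heart sac (pericardial adipose tissue) in the same 6 buffaloes, as outer against inner fat of the chest. These were 12 of the 36 small RNA libraries of a study of 6 buffaloes and 6 fat depots, chosen by the depot named in the labels and paired by buffalo number. Each depot had 6 libraries, 1 per animal. All animals shared 1 history: they were weaned at 3 months of age, fattened from 15 months and slaughtered at 20 months. No treatment or genotype separates the groups, and for breed and sex the labels used here give no entry. A second pair came from the rear of the trunk, inguinal subcutaneous against perirenal fat of the same animals. It was used to ask whether the chest difference, with its sign, differed from that of the rear.

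MicroRNAs (miRNAs) are short RNAs that guide the silencing machinery to messenger RNAs with matching sequence and lower their output. Many are copied from clusters, so that neighbours often appear together. The HOX clusters, groups of genes that mark positions from head to tail, hold miR-10 and miR-196, and the imprinted DLK1-DIO3 region holds one of the largest miRNA clusters of mammals, which in mouse, human and sheep is read from the maternal chromosome.

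The 12 libraries held 10738131 to 13920998 counted reads and 867 to 1020 detected features. Totals averaged 12775000 ± 1294000 in sternal and 12477000 ± 565500 in pericardial libraries (SD, n = 6 each) and were higher in sternal fat in 4 of 6 animals. Levels are given as CPM, reads scaled to a common total, after correction for library composition (TMM). The scaling factor was 0.799 to 1.10 in sternal and 1.04 to 1.18 in pericardial libraries and was lower in sternal fat in 6 of 6 animals (exact p = 0.03125, the smallest that 6 pairs allow). The library names end in a letter, A or B, whose meaning is not given in the sources used here. The pericardial libraries of buffaloes 2 and 5 carry A and the other 10 carry B, so results are also given below for the 4 animals with B in both depots. Counting can split reads among close relatives, by name here the miR-10, miR-23, miR-26, miR-27, miR-196, miR-199, miR-411 and let-7 members, so a single member's value is uncertain. Their sequences were not compared.

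Against pericardial fat, sternal fat had higher levels of HOX-cluster miRNAs and of miR-23a. It had lower levels of the DLK1-DIO3 cluster, the miR-424 and miR-503 cluster, miR-200a, miR-429 and miR-9-5p. For these HOX-cluster miRNAs pericardial fat was also below inguinal and perirenal fat by median, so their high level was not particular to sternal fat. Of 531 features tested, 78 (14.7%) differed at an adjusted p under 0.05, by edgeR's quasi-likelihood test with Benjamini-Hochberg adjustment and the animal as a block. In sternal fat 23 of them (4.33% of those tested) were higher and 55 (10.4%) were lower. All but 2 of the 78 differed at least 2-fold, and 71 had the same direction in 6 of 6 animals. The 2 depots did not overlap for 48 features (9.04%), with sternal fat above for 13 (2.45%) and below for 35 (6.59%). The median log2 difference over all features tested, sternal minus pericardial, was -0.09.

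The split between higher and lower depended on scaling and tool. With library totals alone, 13 rose and 93 fell and the median moved to -0.42. With RLE factors 30 rose and 48 fell, and DESeq2 called 70 in each direction. Within the 4 animals with letter B in both depots, 41 were called, 10 higher and 31 lower, and 40 of these were among the 78. Without buffalo 4, 49 were called, 15 higher and 34 lower.

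**Figure D1:**
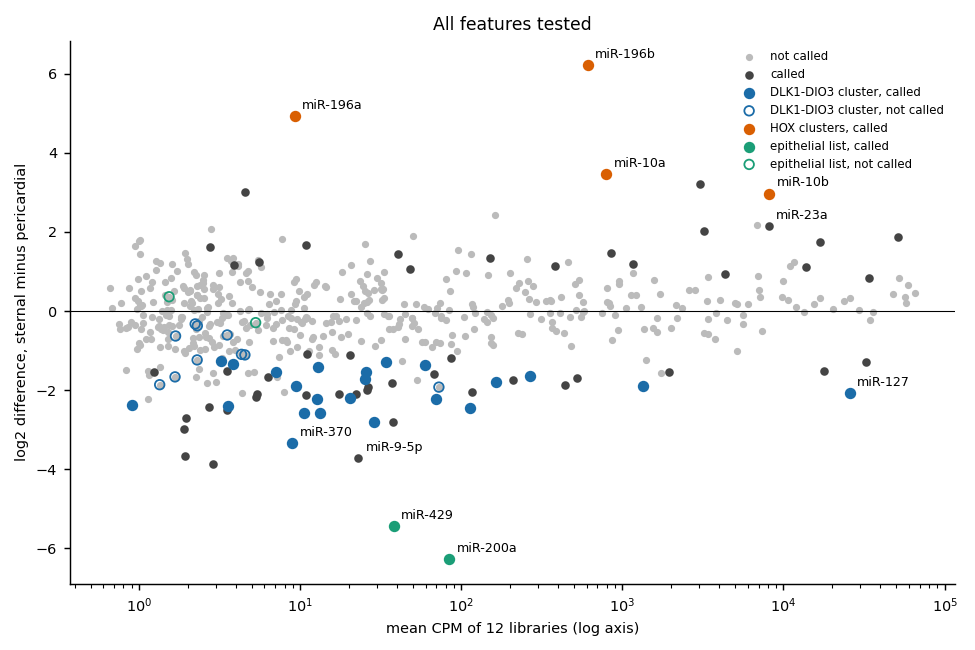
Each point is 1 of the 531 features tested: mean level over the 12 libraries in CPM (log axis) against the fitted log2 difference, sternal minus pericardial. The 4 HOX-cluster miRNAs lie between 2.97 and 6.21, and the 33 DLK1-DIO3 miRNAs all lie below 0.

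The HOX-cluster miRNAs had the largest median rise of the lists in sternal fat. All 4 tested members rose, against 4.33% of all features. None of them overlapped between depots, and 2.45% of all features had sternal fat above without overlap. The filter on low counts asks for reads in only as many libraries as 1 depot holds. The scarce miR-196a could thus pass through sternal fat alone, and for it a positive sign was favoured in advance. The summed level of the 4 was 12410 to 26230 CPM in sternal and 1153 to 2783 CPM in pericardial libraries. miR-196b lies toward the rear end of its HOX cluster. Its lowest, median and highest levels were 382, 889 and 3388 CPM in sternal libraries, against 6.92, 10.5 and 35.6 CPM in pericardial libraries. Every sternal library was therefore above every pericardial one, and buffalo 2 gave the highest value of both depots. Its log2 difference was 6.21 ± 0.33 (SE; adjusted p = 2.79e-06, edgeR), and 6.15 ± 0.46 in the 4 letter B animals.

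miR-196a, its close relative, was scarcer at 9.79, 17.8 and 26.4 CPM in sternal libraries, against 0.0666, 0.605 and 1.78 CPM in pericardial libraries. No pericardial library came near the lowest sternal one. Its log2 difference was 4.94 ± 0.60 (adjusted p = 8.10e-04, edgeR), and limma on log2(RPM + 1) gave 3.22, on a scale that shrinks the change of low features.

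miR-10a and miR-10b lie nearer the front end of their HOX clusters. miR-10b was the most abundant of the group, with 10186, 12694 and 23284 CPM in sternal libraries and 968, 2098 and 2597 CPM in pericardial libraries, a log2 difference of 2.97 ± 0.31 (adjusted p = 3.26e-04, edgeR). Buffaloes 4, 5 and 6 differed by 3.16 to 3.83 and buffaloes 1, 2 and 3 by 2.30 to 2.41. miR-10a had 776, 1324 and 2460 CPM in sternal libraries and 62.2, 134 and 178 CPM in pericardial libraries, a log2 difference of 3.46 ± 0.33 (adjusted p = 3.26e-04, edgeR). The fifth member, miR-615, was too rare to be tested: it had 6 to 14 reads per sternal library, 51 in all, and 0 to 4 per pericardial library, 4 in all.

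The unnamed locus NC_059159.1_8293, for which the files give no miRNA name, moved by a similar size. It held 3196, 5258 and 7775 CPM in sternal libraries and 269, 693 and 774 CPM in pericardial libraries. The log2 difference was 3.22 ± 0.34 (adjusted p = 3.26e-04, edgeR), with no overlap between depots.

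**Figure D2:**
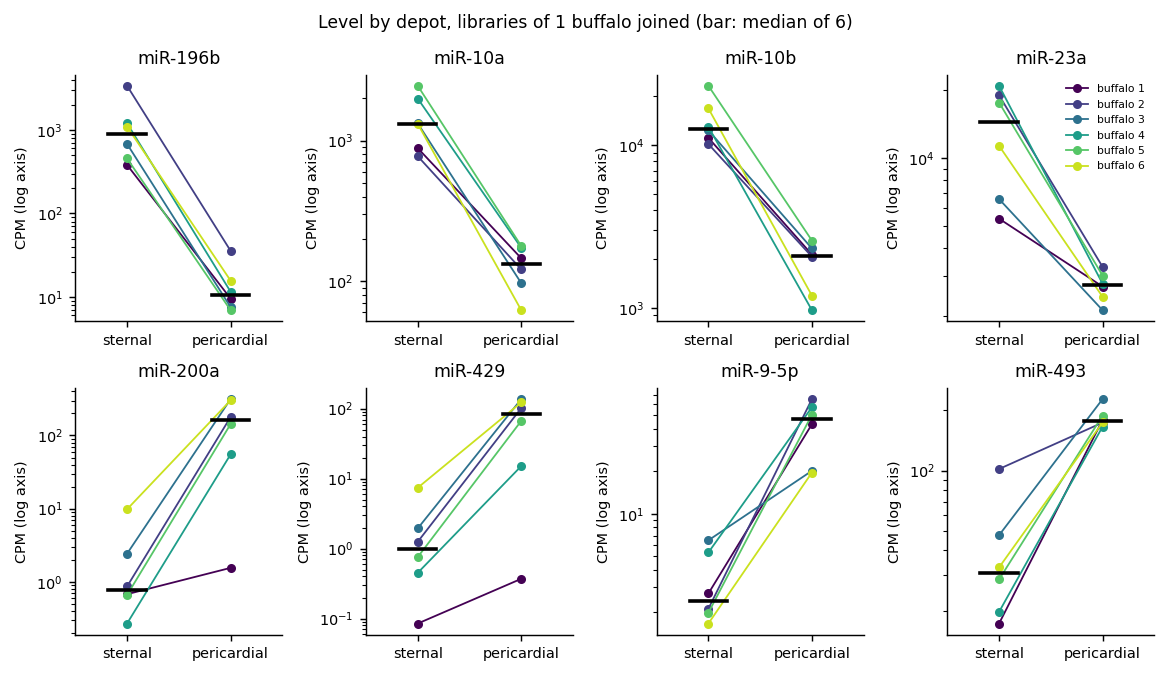
Level in CPM (log axis) of 8 miRNAs in sternal (left) and pericardial (right) fat, with the 2 libraries of each buffalo joined and the median of 6 as a black bar. The lines fall to the right for miR-196b, miR-10a, miR-10b and miR-23a and climb to the right for miR-200a, miR-429, miR-9-5p and miR-493, and buffalo 1 has the lowest pericardial miR-200a (1.56 CPM) and miR-429 (0.370 CPM).

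The clusters of miR-23, miR-27 and miR-24 were raised in part in sternal fat. Of 8 members tested 4 rose, against 4.33% of all features, 4 did not pass and none fell, and all 8 log2 differences were positive, with a median of 0.81 (with library totals alone 2 rose and 7 were positive). miR-23a led, with 5396, 14503 and 20944 CPM in sternal libraries and 2120, 2738 and 3299 CPM in pericardial libraries. The depots did not overlap, and buffaloes 1 and 3 had the lowest sternal values. Its log2 difference was 2.15 ± 0.30 (adjusted p = 0.00183, edgeR) and 1.93 ± 0.41 in the letter B animals.

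miR-27 is known to hold back the maturation of fat cells in mouse and human culture. miR-27a-3p had 10201, 18414 and 34809 CPM in sternal libraries and 5801, 8082 and 11237 CPM in pericardial libraries, so the depots overlapped slightly (log2 difference 1.12 ± 0.24, adjusted p = 0.0111, edgeR). miR-27b rose by 0.84 ± 0.23 and the rare arm miR-27a-5p by 1.43 ± 0.40, and the sternal library of buffalo 6 alone held 256 CPM of that arm, against a sternal median of 30.3 CPM. None of these 3 passed the threshold in the 4 letter B animals (adjusted p of 0.145, 0.229 and 0.113, edgeR). miR-27b and miR-27a-5p also lost it with library totals alone.

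Beyond these clusters, 6 named miRNAs rose in sternal fat. miR-199b, a miRNA of connective-tissue cells, had 706, 1103 and 2150 CPM in sternal libraries and 377, 416 and 476 CPM in pericardial libraries, without overlap (log2 difference 1.46 ± 0.30, adjusted p = 0.00873, edgeR). miR-193a-5p had 1155, 1644 and 2063 CPM in sternal libraries and 630, 664 and 894 CPM in pericardial libraries, again without overlap (1.20 ± 0.25, adjusted p = 0.0101, edgeR). Its family is linked to brown fat in mouse, and the family members miR-193a, miR-193a-3p and miR-193b were not called. miR-139, which lies within the phosphodiesterase gene PDE2A in human and mouse, had 6140, 25037 and 42654 CPM in sternal libraries and 1455, 6837 and 21403 CPM in pericardial libraries (1.74 ± 0.48, adjusted p = 0.0382, edgeR). Its ranges overlapped, although sternal fat was higher in each animal.

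The remaining rises were 1.68 ± 0.42 for miR-324, 1.33 ± 0.27 for miR-1260b and 1.15 ± 0.31 for miR-224, which lies within the gene GABRE in human. None of these 6 was called within the 4 letter B animals, where differences were 1.65 for miR-139, 1.45 for miR-324, 1.31 for miR-224, 1.23 for miR-199b and 1.02 for miR-193a-5p. miR-139, miR-324 and miR-224 also lost the call with library totals alone.

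Of 196 unnamed loci tested 9 rose, a share similar to the 4.33% of all features tested. NC_059165.1_25340 was abundant, with 40895, 83768 and 122300 CPM in sternal libraries and 14012, 22253 and 25842 CPM in pericardial libraries (1.87 ± 0.28, adjusted p = 0.00276, edgeR). NC_059181.1_46474 rose by 2.02 ± 0.29 (adjusted p = 0.00198, edgeR). Neither overlapped between depots, and the files do not say what either locus encodes.

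The largest group that was lower in sternal fat was the imprinted DLK1-DIO3 cluster. Of 56 members present, 33 passed the filter on low counts and 23 of these fell, against 10.4% of all features tested, while none rose. All 33 log2 differences were negative, from -3.34 to -0.33, with a median of -1.73 against -0.09 for all features. They were also all negative with RLE factors (20 called), library totals alone (28 called) and limma on RPM (29 called). The filter, with the depot as group, asks for reads in only as many libraries as 1 depot holds. Rare members such as miR-376c (medians 0.171 CPM in sternal and 1.43 CPM in pericardial libraries) could thus pass through pericardial fat alone. For such members a negative sign was favoured in advance. The depots did not overlap for 20 of the 33, against 6.59% of all features with sternal fat below. The summed level had a lowest, median and highest value of 4902, 13230 and 17660 CPM in sternal libraries, against 29170, 46960 and 53940 CPM in pericardial libraries.

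miR-127, which in mouse lies antisense to the imprinted gene Rtl1, made up most of that sum. It had 4248, 12037 and 16103 CPM in sternal libraries and 25814, 43523 and 50134 CPM in pericardial libraries. No sternal library reached the lowest pericardial one, and the fitted log2 difference was -2.07 ± 0.36 (adjusted p = 0.00417, edgeR). By animal it ran from -0.68 in buffalo 2, which had the lowest pericardial and the highest sternal level, to -3.20 in buffalo 5.

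The steepest fall was that of miR-370, at 0.567, 1.82 and 2.89 CPM in sternal libraries and 10.6, 15.8 and 23.8 CPM in pericardial libraries (-3.34 ± 0.40, adjusted p = 8.10e-04, edgeR). miR-381 had 4.23, 6.28 and 12.7 CPM in sternal libraries and 40.2, 47.8 and 65.1 CPM in pericardial libraries (-2.80 ± 0.34, adjusted p = 8.15e-04, edgeR). Neither overlapped. miR-493 had 17.2, 30.7 and 102 CPM in sternal libraries and 166, 177 and 228 CPM in pericardial libraries (-2.45 ± 0.38, adjusted p = 0.00277, edgeR), and the sternal library of buffalo 2 held the value of 102 CPM.

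The fall included abundant and rare members. miR-411a (-1.90 ± 0.32) had medians of 588 CPM in sternal and 2082 CPM in pericardial libraries, and miR-432 (-1.64 ± 0.31) had 123 CPM in sternal and 427 CPM in pericardial libraries. miR-379 (-1.78 ± 0.34) had medians of 80.2 CPM in sternal and 263 CPM in pericardial libraries. Of the members named for the size of their fall, miR-411c-3p fell by 2.58, miR-655 by 2.57, miR-369-3p by 2.23, miR-411c-5p by 2.22 and miR-376b by 2.20 on the log2 scale. miR-127, miR-411a, miR-432 and miR-379 are named for their abundance, after their values were seen.

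The 10 members that did not pass the test, among them miR-136, miR-377 and miR-410, had log2 differences between -1.92 and -0.33. The median difference over the 33 members was -1.36, -0.92, -1.19, -2.28, -2.48 and -1.91 in buffaloes 1 to 6, and 29 to 33 of the members were lower in each animal. The median over all features was between -0.30 and 0.05 in the same animals. In the 4 letter B animals 14 members were called, with the letter as a covariate 12, and without buffalo 4 15.

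Unnamed loci of the sequence record NC_059176.1 were counted apart, since the files do not tie them to a cluster. Of 12 tested 3 fell, against 10.4% of all features, and none rose. The record was picked after its values were seen. In NC_059164.1, by comparison, 3 of 9 loci rose, against 4.33% of all features, and none fell. NC_059176.1_40495 was the most abundant of them, with medians of 9321 CPM in sternal and 27106 CPM in pericardial libraries (-1.53 ± 0.29, adjusted p = 0.00642, edgeR). The others were NC_059176.1_40497 (-1.55 ± 0.29) and NC_059176.1_40486 (-2.42 ± 0.47). None of the 3 overlapped between depots, against 6.59% of all features with sternal fat below. Of the 78 called features, 43 did not overlap.

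**Figure D3:**
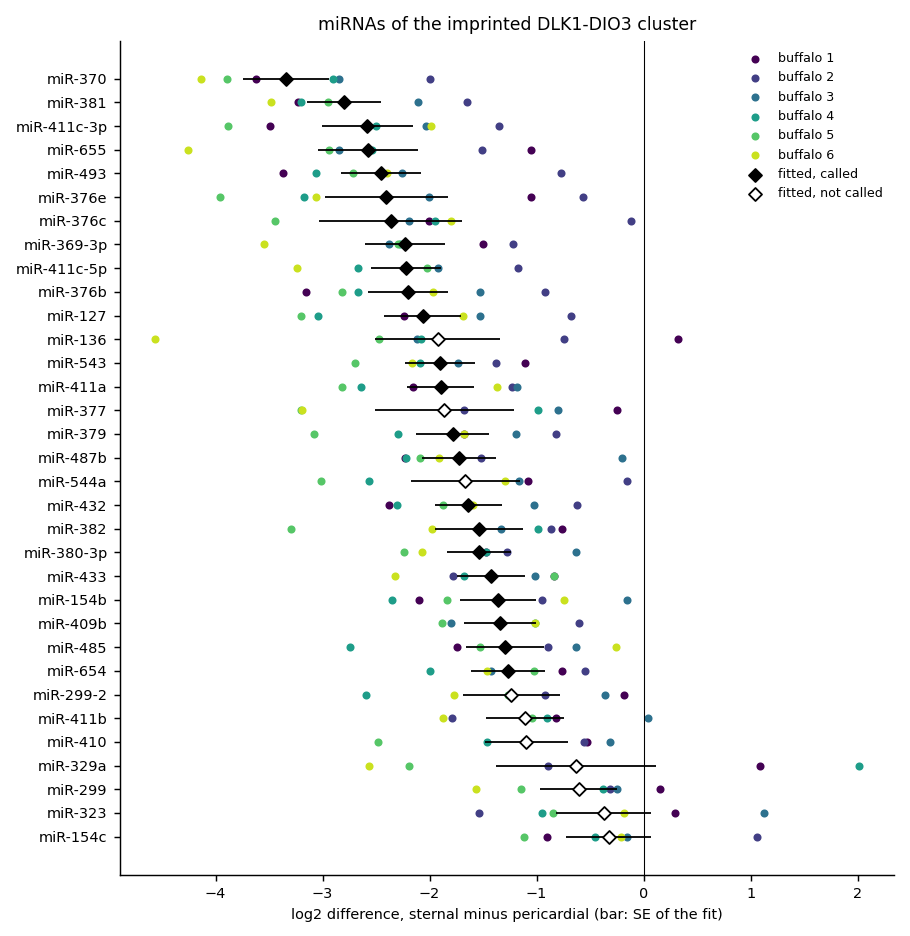
Log2 difference, sternal minus pericardial, of the 33 DLK1-DIO3 miRNAs tested: coloured points are the 6 buffaloes, diamonds the fitted value with its SE, filled where the test was passed. The fitted values run from -3.34 to -0.33, and 23 of the 33 diamonds are filled.

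A second cluster, that of miR-424, miR-503, miR-450 and miR-542, which lies on the X chromosome in human and mouse and is known for slowing the cell cycle, was also lower in sternal fat. All 5 tested members fell, against 10.4% of all features, with log2 differences from -2.17 to -1.74. Their summed level was 68.8, 126 and 259 CPM in sternal libraries and 281, 454 and 537 CPM in pericardial libraries. miR-450a, the most abundant, had 48.6, 98.3 and 171 CPM in sternal libraries and 194, 318 and 412 CPM in pericardial libraries, without overlap (-1.74 ± 0.30, adjusted p = 0.00404, edgeR).

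miR-450b fell by 1.91, also without overlap, miR-424-3p by 1.99, miR-542-5p by 2.10 and miR-424-5p by 2.17 on the log2 scale. In the last 3 the depots overlapped, and the sternal library of buffalo 3 stood above the other sternal ones for miR-424-3p (32.0 CPM) and miR-542-5p (28.5 CPM). miR-424-3p and miR-542-5p were not called in the 4 letter B animals, where their log2 differences were -1.78 (adjusted p = 0.0883, edgeR) and -1.49 (adjusted p = 0.158). Both arms of miR-503 were below the filter, with 10 and 15 reads in all sternal libraries and 25 and 73 reads in all pericardial libraries for the 5p and the 3p arm.

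miR-200a and miR-429, members of the miR-200 family, which keeps cells epithelial by repressing the factors ZEB1 and ZEB2, were scarce in sternal fat and high in most pericardial libraries. miR-200a had 0.270, 0.772 and 9.81 CPM in sternal libraries and 1.56, 161 and 315 CPM in pericardial libraries. The log2 difference was -6.27 ± 0.97 (adjusted p = 0.00353, edgeR), the largest fall of all features tested. miR-200a could pass the filter on low counts through pericardial fat alone, so a negative sign was favoured in advance. Its low sternal counts also leave the size of the fall uncertain. miR-429 had 0.0849, 1.003 and 7.40 CPM in sternal libraries and 0.370, 84.5 and 137 CPM in pericardial libraries (-5.44 ± 0.54, adjusted p = 3.26e-04, edgeR).

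For both, sternal fat was lower in 6 of 6 animals, and yet the depots overlapped. The pericardial library of buffalo 1 held as little as a sternal one, while those of the other 5 held at least 55.2 CPM of miR-200a and 15.1 CPM of miR-429. The sternal library of buffalo 6 was the highest of its depot for both. In buffalo 1 the differences were -1.03 for miR-200a and -1.12 for miR-429, and in the other 5 animals they ran from -7.45 to -4.92 and from -6.20 to -4.03. miR-200b, too uneven to pass the filter, had 0 to 9 reads per sternal library (9 in all) and 0 to 476 per pericardial library (1441 in all). miR-141 had 54 reads in all sternal and 187 in all pericardial libraries, while miR-183 (0.36) and miR-200c (-0.29) were tested and not called.

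The depots also differed in a few miRNAs best known from other tissues. miR-9-5p, a neural miRNA, had 1.66, 2.42 and 6.47 CPM in sternal libraries and 19.6, 46.8 and 65.1 CPM in pericardial libraries, without overlap (-3.71 ± 0.47, adjusted p = 9.81e-04, edgeR). miR-449a, known from ciliated epithelium, had 8.23, 38.4 and 53.4 CPM in sternal libraries and 23.9, 139 and 575 CPM in pericardial libraries (-2.05 ± 0.32, adjusted p = 0.00284, edgeR). As with miR-200a and miR-429, the lowest pericardial value of miR-449a was that of buffalo 1, and the highest that of buffalo 3.

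Of 4 muscle miRNAs tested, 2 fell, against 10.4% of all features. miR-206, specific to skeletal muscle, had 1.23, 6.80 and 24.9 CPM in sternal libraries and 21.2, 38.3 and 173 CPM in pericardial libraries (-2.80 ± 0.55, adjusted p = 0.00726, edgeR), lower in 5 of 6 animals. It was not called with all 36 libraries and no block (adjusted p = 0.152, edgeR), and in the fit without the block it lost the call with 5 of 12 single libraries left out. miR-499, copied with a muscle myosin gene, fell by 1.10 ± 0.30 (adjusted p = 0.0346, edgeR) and lost the call in 12 of 17 alternatives. miR-1 (-1.25) and miR-133a (-1.66) were not called, and miR-208a, specific to heart muscle, had 3 reads in all sternal and 3 in all pericardial libraries. The red blood cell miRNA miR-451 had 7651, 16478 and 38193 CPM in sternal libraries and 23811, 34340 and 86527 CPM in pericardial libraries (-1.28 ± 0.33, adjusted p = 0.0315, edgeR). It was lower in 5 of 6 animals and was not called within the letter B animals (adjusted p = 0.231) or without the block.

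miR-138, listed as both neural and anti-adipogenic, fell by 1.68 ± 0.38 (adjusted p = 0.0152, edgeR), and miR-335, which lies within the imprinted gene MEST in human and mouse, by 2.09 ± 0.56 (adjusted p = 0.0345, edgeR). Both were rare: miR-138 had medians of 2.33 CPM in sternal and 9.53 CPM in pericardial libraries, and miR-335 had 1.52 CPM in sternal and 7.25 CPM in pericardial libraries. Among unnamed loci outside the record above, NC_059181.1_47475 had 93.6, 170 and 464 CPM in sternal libraries and 534, 621 and 908 CPM in pericardial libraries (-1.86 ± 0.35, adjusted p = 0.00672, edgeR). NC_059158.1_6094 fell by 2.13 ± 0.54 (adjusted p = 0.0257, edgeR). These 4 calls held less widely: miR-335 was called in 7 of 16 alternatives and with 0 of 12 single libraries left out, miR-138 in 11 of 16 and NC_059158.1_6094 in 11 of 17. NC_059181.1_47475 was called in 15 of 17 and lost the call with the letter as a covariate and in the letter B animals, where its log2 difference was -1.82.

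Markers of cell types other than fat cells give the setting of these differences, and in whole tissue fewer cells of a type and less RNA per cell cannot be told apart. The summed muscle list was 30.9 to 61.7 CPM in sternal and 80.9 to 284 CPM in pericardial libraries, which did not overlap. Against 10.4% of all features that were lower, the erythroid list (1 of 3 lower) summed to 7674 to 38260 CPM in sternal and 23860 to 86690 CPM in pericardial libraries. The epithelial list (2 of 4 lower) summed to 5.26 to 23.9 CPM in sternal and 5.85 to 459 CPM in pericardial libraries.

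The leukocyte list was called in 0 of 7 members (3 fell with library totals alone), with 2192 to 7030 CPM in sternal and 3523 to 10500 CPM in pericardial libraries, and the endothelial list in 0 of 2. Of 6 miRNAs of smooth muscle and stroma, miR-199b rose and the other 5 were not called, both miR-199a arms among them. miR-214 had 1.55 ± 0.51 (adjusted p = 0.0708, edgeR). The neural list had 2 of 10 members lower, against 10.4% of all features, and miR-124a, its most specific marker, was not called. The liver, kidney and gut list was called in 0 of 3. The part of any of these cell types in the differences above was not tested.

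miRNAs with known roles in fat cells did not move as a group. Of 19 pro-adipogenic members tested 1 fell (miR-335) and none rose, with a median log2 difference of 0.04. With library totals alone 2 of the 19 fell, 14 were negative and the median was -0.25. Of 15 anti-adipogenic members 4 rose (miR-224 and the 3 miR-27 features) and 1 fell (miR-138), with a median of 0.42. The brown and beige list had 5 of 22 members higher (miR-196a, miR-193a-5p and the same 3 miR-27 features) and a median of 0.02. With library totals alone the brown and beige list had 3 members higher and 3 lower and the anti-adipogenic list 1 higher and 1 lower. The 3 miR-27 features stand in both of these lists. Of all features tested, 4.33% were higher and 10.4% were lower.

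Several other families held no called member: 0 of 12 in the miR-17-92 cluster and its paralogues (median log2 difference -0.21), 0 of 5 of the miR-29 family (-0.33), 0 of 6 of the miR-30 family (0.15), 0 of 10 of the let-7 family (0.38) and 0 of 4 of the miR-148 and miR-152 family (1.04). With library totals alone 4 of the miR-17-92 list and 1 of the miR-29 family fell, and the miR-30 median turned to -0.19. In the miR-148 and miR-152 family miR-148c had 1.45 ± 0.72 and miR-152 1.25 ± 0.46, sizes between 2-fold and 4-fold. The self-test with simulated counts found 22.6% of 2-fold and 82.8% of 4-fold changes over its features. The rate for these members was not measured, and a missing call does not show equal levels.

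**Figure D4:**
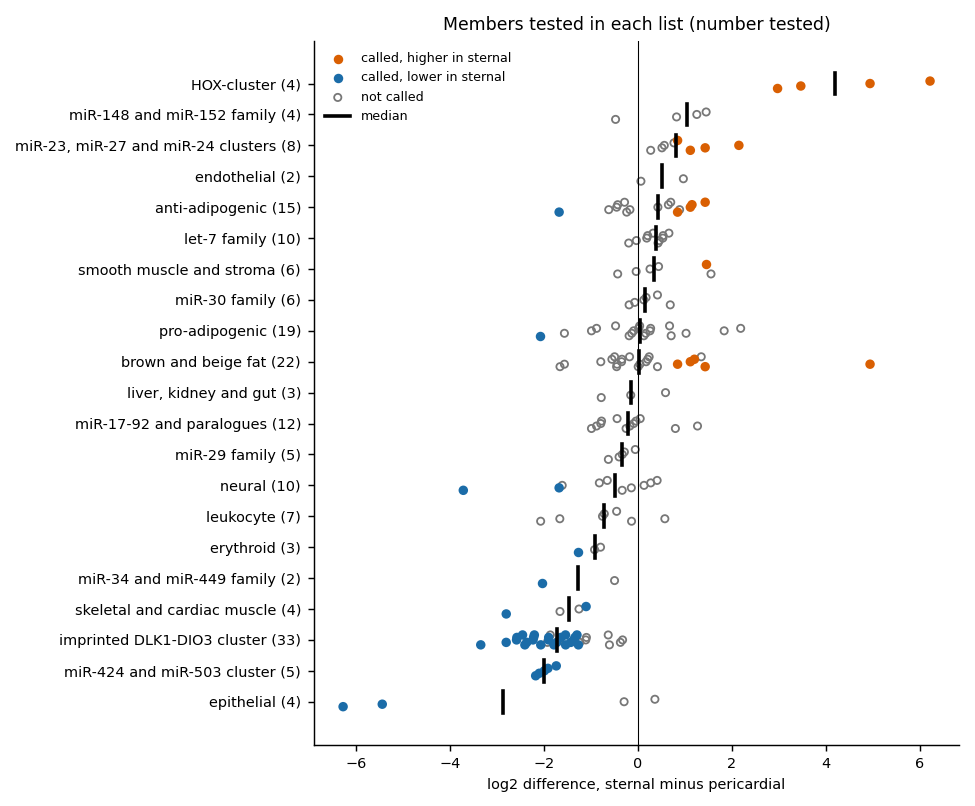
Fitted log2 differences, sternal minus pericardial, of the members tested in each list (their number after the name), ordered by median: orange, higher and passing the test, blue, lower and passing, open, not passing. The HOX-cluster list stands at the top with a median of 4.20, and the epithelial list at the bottom with -2.87.

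The 5 most abundant features did not pass the test. let-7c had 58225, 74894 and 98045 CPM in sternal libraries and 25803, 56051 and 77399 CPM in pericardial libraries (0.46 ± 0.25, adjusted p = 0.242, edgeR). let-7i (0.66 ± 0.24, adjusted p = 0.0986, edgeR) was called when all 36 libraries entered the fit, with the block (0.67) or without it (0.68), with DESeq2 (0.81), and without buffalo 1 (0.93).

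The division of reads between miR-26a and miR-26c differed strongly between libraries, in a way that crossed the depots. Its cause was not tested. miR-26a took 6.09% to 14.4% of the reads of the pair in sternal libraries 1 to 3 and 88.9% to 92.7% in sternal libraries 4 to 6. In pericardial libraries it took 91.98% in buffalo 1, 97.2% in buffalo 6 and 10.2% to 16.6% in the rest. Summed to 1 feature the pair differed by 0.34 ± 0.18 (adjusted p = 0.234, edgeR).

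The chest pair was then set against the caudal pair, inguinal minus perirenal fat, in 1 fit of all 36 libraries. Some perirenal libraries carry letter A and no inguinal library does, so depot and letter are partly mixed in the caudal pair too. The main fit of this contrast does not include the letter. For the HOX-cluster and DLK1-DIO3 miRNAs, its result with the letter as a covariate is not given here. Of 667 features 31 (4.65%) differed between the pairs. With its sign, the chest difference was above the caudal one for 7 (1.05%) and below it for 24 (3.6%). The caudal pair by itself differed for 1 feature (0.15%), miR-9-5p, and the chest pair for 90 in the same fit. Of the 7, 4 were HOX-cluster miRNAs, and of the 24, 17 were DLK1-DIO3 miRNAs.

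miR-196b differed by 6.22 in the chest pair and by 0.56 in the caudal pair, a difference between pairs of 5.66 ± 0.87 (adjusted p = 6.63e-05, edgeR). Its medians were 2572 CPM in inguinal and 2354 CPM in perirenal fat, so both caudal depots were above the sternal median. miR-196a followed with 4.23 ± 0.94 (adjusted p = 0.00403, edgeR) and caudal medians of 324 CPM in inguinal and 212 CPM in perirenal fat. For miR-10a the pairs differed by 3.995 ± 0.46 (adjusted p = 3.92e-07, edgeR): the caudal difference was -0.51, with medians of 525 CPM in inguinal and 885 CPM in perirenal fat.

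miR-10b behaved likewise, with 3.15 ± 0.37 between pairs and caudal medians of 11810 CPM in inguinal and 14542 CPM in perirenal fat. Pericardial fat was thus the lowest of these depots for all 4 miRNAs by median, at 11.2 CPM of miR-196b, 0.593 CPM of miR-196a, 143 CPM of miR-10a and 2235 CPM of miR-10b. miR-615, which passed the filter in this fit, did not differ between pairs by the test (2.63 ± 1.12, adjusted p = 0.257, edgeR). The locus NC_059159.1_8293 differed between pairs by 3.59 ± 0.42, with caudal medians of 2819 CPM in inguinal and 3553 CPM in perirenal fat.

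In the DLK1-DIO3 list 17 of 39 members tested were lower in the chest contrast than in the caudal one, against 3.6% of all features. The list's median difference was -1.62 in the chest pair and 0.37 in the caudal pair. miR-127 differed by -1.95 in the chest pair and by 0.92 in the caudal pair, where it had medians of 34960 CPM in inguinal and 16752 CPM in perirenal fat (difference between pairs -2.87 ± 0.56, adjusted p = 9.97e-04, edgeR). miR-381 (-3.38 ± 0.57, adjusted p = 1.86e-04, edgeR), miR-369-3p (-2.90 ± 0.56), miR-411c-5p (-2.80 ± 0.47), miR-493 (-2.58 ± 0.48) and miR-376b (-2.30 ± 0.52) also differed, each in 6 of 6 animals. miR-655 differed too (-2.98 ± 0.81, adjusted p = 0.0240, edgeR) but not without the block (adjusted p = 0.104). Without buffalo 5 the list's count was 7, without buffalo 1 it was 9 and without buffalo 4 it was 11.

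Other chest differences were not shown to differ from the caudal ones. miR-200a had -6.64 in the chest pair and -5.84 in the caudal pair, a difference of -0.80 ± 1.78 (adjusted p = 0.930, edgeR), and miR-429 had -5.77 in the chest pair and -5.89 in the caudal pair, a difference of 0.12 ± 1.70. miR-199b had 1.58 in the chest pair and 1.40 in the caudal pair (0.18 ± 0.45), and miR-23a had 2.28 in the chest pair and 1.39 in the caudal pair (0.89 ± 0.51). miR-9-5p was lower in the outer depot of both pairs, with -3.64 in the chest and -1.99 in the caudal pair (-1.66 ± 0.58, adjusted p = 0.125, edgeR). With the library letter as a covariate its difference between pairs passed (-1.80, adjusted p = 0.0418, edgeR). That covariate was not planned for the contrast of pairs, and its outcome for the HOX-cluster and DLK1-DIO3 miRNAs is not given. The pass by itself therefore does not show that miR-9-5p differed between pairs. miR-139 had 1.86 in the chest pair and -0.76 in the caudal pair, a difference of 2.63 ± 0.85 that did not pass (adjusted p = 0.0806, edgeR).

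**Figure D5:**
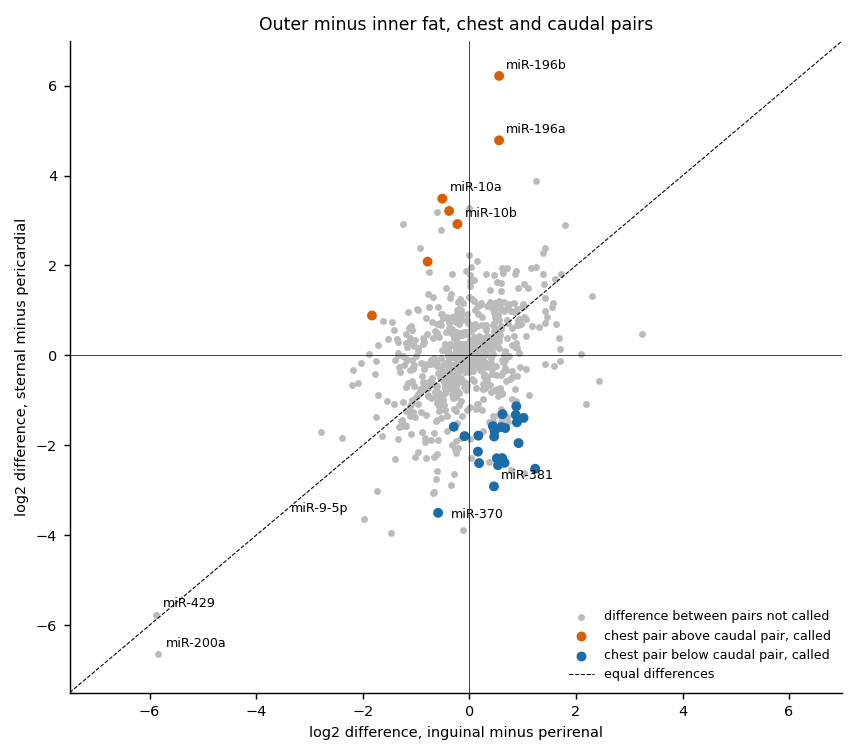
Each point is 1 of 667 features: log2 difference of inguinal minus perirenal fat (horizontal) against sternal minus pericardial fat (vertical), with the dashed line where both are equal. miR-10a, miR-10b, miR-196a and miR-196b lie between -0.51 and 0.56 on the horizontal axis and between 2.92 and 6.22 on the vertical one, while miR-200a and miR-429 lie below -5.5 on both.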

How the data were processed

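Small RNA was sequenced from 6 fat depots of 6 buffaloes. The kits, per the labels' protocols, were the RNeasy Lipid Tissue Mini Kit for extraction and the TruSeq RNA LT kit (v2) for libraries. The authors deposited whole-number read counts per miRNA or unnamed locus, and RPM values, which equal the count divided by the library total (largest difference 4.79e-06). For the aligner, caller and build: not given in the sources used here. The submitters' processing notes name DESeq2 1.24.0 without saying what it was used for. A blank line with 0 counts was left out. Every pair of libraries differed by more than sampling noise (smallest chi-square per degree of freedom 525). miRNA sequences were not used here.

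The labels give depot and animal. Counts were tested in R 4.3.3 with edgeR 4.0.16 (TMM factors, filterByExpr with a minimum count of 10, estimateDisp, robust glmQLFit, glmQLFTest) on the 12 libraries with depot and animal as terms, which left 5 residual degrees of freedom. A feature was called at a Benjamini-Hochberg adjusted p under 0.05 over all features tested, two-sided. The chest and caudal pairs were compared in 1 fit of 36 libraries with 25 residual degrees of freedom. The SE is the absolute log2 difference over the square root of F. Differences of single animals are in log2 CPM with a prior count of 2. Library properties were tested by flipping the signs of the 6 paired differences. Libraries with the same number come from the same animal. Their deviations from the depot means correlated by 0.369, 0.337, 0.253, 0.187, 0.344 and 0.0864 in animals 1 to 6, and by -0.0515 on average between animals. Low counts carry relatively more counting error.

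Features named were called miRNAs at 10 CPM or more on average that moved in 1 direction in at least 5 animals (the 12 largest in each direction), the 3 largest unnamed loci in each direction, tested HOX-cluster miRNAs, the 5 most abundant features and up to 4 called members of each list. For the contrast of pairs, the 3 largest in each direction were added. Others were named after their values were seen. The comparison, its members and the lists were chosen with earlier results of these data known, so no list is independent support.

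The first list of alternatives held library totals alone, RLE factors, a floor of 10 mean CPM, no filter, no replicate block, all 36 libraries, the library letter as a covariate, the 4 animals with letter B in both depots, each animal left out, limma 3.58.1 on log2(RPM + 1) and DESeq2 1.42.0. Chosen after the data were seen were the sum of miR-26a and miR-26c, each single library left out, and the letter as a covariate in the contrast of pairs. In simulated counts with 514 features the fit of the 12 libraries found 5.97% of the changes of 1.5-fold, 22.6% of those of 2-fold and 82.8% of those of 4-fold, with 0 false calls among 321 unchanged features. The contrast of pairs, with 645 features, recovered 4.69%, 3.17% and 35.9%, with 0 false calls among 454.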

Additional observations from a re-analysis of the deposited data

Results flagged for a closer look

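In 14 of 104 groups of 6 libraries (both depots of every named feature and of the library properties) 1 library stood apart from the rest. The rule's rate of 1 in 20 would give 5.2. That rate is for normally spread values, and the CPM were not log-transformed for it. In sternal fat this was buffalo 6 for miR-27a-5p (256 CPM), miR-200a (9.81 CPM) and miR-429 (7.40 CPM). Buffalo 3 stood apart for miR-424-3p (32.0 CPM), miR-542-5p (28.5 CPM) and the unnamed locus NC_059181.1_47475 (464 CPM). Buffalo 2 did so for miR-196b (3388 CPM), miR-493 (102 CPM), miR-411c-5p (49.7 CPM) and miR-369-3p (9.91 CPM). In pericardial fat the libraries were buffalo 3 for miR-449a (575 CPM) and miR-493 (228 CPM), buffalo 6 for miR-411c-5p (192 CPM) and buffalo 2 for miR-196b (35.6 CPM). All 14 were the highest of their group.

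The chest difference (sternal minus pericardial) was larger than the caudal one (inguinal minus perirenal) on the log2 scale for miR-10a (3.995), miR-10b (3.15), miR-196a (4.23) and miR-196b (5.66). It was lower than the caudal one, that is toward more negative values, for miR-381 (-3.38), miR-655 (-2.98), miR-369-3p (-2.90), miR-411c-5p (-2.80), miR-493 (-2.58) and miR-376b (-2.30). These are tests of the difference itself, by edgeR's quasi-likelihood test with Benjamini-Hochberg adjustment.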

How the results depend on the processing

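Of 41 named features called, 23 kept the call and the direction under every one of the first list of alternatives that tested them: the 4 HOX-cluster miRNAs, miR-23a, miR-200a, miR-429, miR-9-5p, miR-449a, miR-450a, miR-450b, 8 of the DLK1-DIO3 cluster and 4 unnamed loci. All but miR-655 and miR-449a of these also kept it with each single library left out of the fit without the block. Counts moved more, from 78 (23 higher, 55 lower; 23 of DLK1-DIO3). Library totals alone gave 13 higher and 93 lower, no filter 44 higher, limma 15 higher and 101 lower, and DESeq2 140 in all with 70 higher. The letter as a covariate gave 38 (10 higher, 28 lower; 12 of DLK1-DIO3), and the 4 letter B animals 41 (10 higher, 31 lower; 14 of DLK1-DIO3). By edgeR, 0 of 531 features were called for the letter, with 17 at an unadjusted p under 0.05. Without the replicate block 88 were called. Leaving out 1 animal gave 49 to 79 (13 to 25 higher, 34 to 54 lower, 15 to 21 of DLK1-DIO3), lowest without buffalo 4, and for higher calls without buffalo 5. Leaving out 1 library without the block gave 62 to 105 (19 to 36 higher, 42 to 69 lower, 19 to 26 of DLK1-DIO3). In the contrast of pairs, leaving out 1 animal gave 15 to 32 (5 to 9 higher, 9 to 23 lower, 7 to 16 of DLK1-DIO3), against 31 (7, 24 and 17).

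Uncalled values changed sign. miR-26c (0.20) became -0.17 with library totals, -0.0031 without the block, -0.032 with 36 libraries and no block, and -0.23 with limma. Leaving out 1 animal gave -0.38 to 0.83, and leaving out 1 library without the block as low as -0.46, with -0.077 without SSAT1, -0.20 without SSAT3, -0.14 without PCAT1 and -0.17 without PCAT6. NC_059159.1_9569 (0.36) became -0.054 with the letter, -0.066 in the letter B animals and -0.097 without SSAT3 and the block. In the contrast of pairs miR-199b became -0.050 and miR-429 -0.16 with library totals, and miR-429 -0.31 with the letter. Leaving out 1 animal gave -1.04 to 0.98 for miR-429, -2.17 to 0.19 for miR-200a and -0.23 to 0.92 for miR-27a-5p. The causes were not tested.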
